A study of Homo sapiens with 27 samples.

Results

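Replication-dependent histone genes were followed by RNA-seq after SIRT3 knockdown in diffuse large B-cell lymphoma (DLBCL) cells. The 45 genes described here were chosen by their names and by measured levels: a symbol of the HIST1H, HIST2H, HIST3H or HIST4H families, with a level of at least 0.1 CPM (reads of a gene scaled to the total of its library) in at least 3 of the 27 libraries. They were 45 of 73 such symbols, among 27115 genes listed per library. By the histone they are named for, 4 belonged to H1, 12 to H2A, 14 to H2B, 9 to H3 and 6 to H4. One of the H2B genes, HIST2H2BC (now H2BC20P), is annotated as a transcribed pseudogene with no stop codon, and it stays in the counts because the rule goes by symbol. The libraries came from 3 established human DLBCL cell lines, Karpas422 (a high oxidative phosphorylation subtype), OCI-LY1 (germinal center B-cell like) and HBL1 (activated B-cell like). Each line received 1 of 3 shRNAs, with 3 replicates a group: a scramble control (shCTRL in the labels, shCtr here) or 1 of 2 shRNAs against SIRT3, the mitochondrial deacetylase (shSIRT3-1 and shSIRT3-2). All 9 groups carried the pLKO.1 lentiviral vector with puromycin resistance and YFP, and RNA was taken on day 8. The labels do not say whether replicates were separate infections, so p-values measure the spread between these libraries, which may be technical.

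Replication-dependent histones package newly made DNA, and their genes are switched on together when cells enter S phase. H2A, H2B, H3 and H4 form the core of the nucleosome, and H1 binds the linker DNA between nucleosomes. Most of the genes lack introns and sit in clusters. Their mRNAs end in a conserved stem-loop in place of a poly(A) tail. The stem-loop is bound by SLBP, and the U7 small nuclear ribonucleoprotein guides cleavage just after it. These mRNAs decay rapidly when DNA synthesis stops. Some of the genes also give polyadenylated transcripts, which have been described in differentiating or non-dividing cells, and a library enriched for poly(A) sees mainly that form. Whether these libraries were enriched for poly(A) was not given in the sources used here.

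The knockdown was checked first. With shCtr, SIRT3 was at 9.78 ± 0.56 CPM in Karpas422 cells, 11.5 ± 2.00 in OCI-LY1 cells and 14.7 ± 1.48 in HBL1 cells (SD, n = 3 each). With shSIRT3-1 it was at 2.60 ± 0.17, 1.64 ± 0.59 and 2.17 ± 0.20 CPM in the same order. With shSIRT3-2 it was at 5.32 ± 0.91, 5.42 ± 1.18 and 3.26 ± 0.50 CPM. A gene was called when its fold change passed 1.5 and its adjusted p was under 0.05 in limma, with Benjamini-Hochberg adjustment over 16485 genes. SIRT3 was called lower in every line with both shRNAs, except with shSIRT3-2 in OCI-LY1 (log2 fold change -1.08, SE 0.28, adjusted p = 0.072). Reads on genes ranged from 28694398 to 53405456 per library, and 1311 to 25144 of them lay on the 45 histone genes. One read was worth 0.00831 to 0.0157 CPM, so most of these genes were read at low counts.

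The stem-loop was present at nearly all of the genes. On hg19, 43 of the 45 genes could be placed: 36 on chromosome 6 between bases 26020679 and 27861669, 6 on chromosome 1 and 1 on chromosome 12 (HIST4H4). A stem of 6 base pairs, opening with GG and closing with CC around a loop of 4 bases, with at most 1 mismatch, was searched within 150 bases after the stop codon. It was found in 41 of 42 genes with an annotated stop codon, 23 to 62 bases after it (median 35), and was not found in HIST2H2BF. Only the commonest annotated stop codon of each gene was searched. HIST2H2BF has 5 annotated transcripts, so a stem-loop at another end of this gene could have been missed. There were 9 different cores, and 24 genes shared the commonest. The genes shown lie, in hg19, at chr1:149856009-149858232 (HIST2H2BE), chr6:27114140-27114634 (HIST1H2BK), chr6:27805658-27806153 (HIST1H2AK), chr6:26224427-26227701 (HIST1H3E) and chr12:14920933-14924065 (HIST4H4), and each stem-loop lies in the 3′ UTR. The examples below come from the genes whose levels are described first. The stem and loop are in capitals, with 5 bases on each side, 5′ to 3′ on the gene's strand. They lie at chr1:149857733-149857758 (minus strand), chr6:27114140-27114165 (minus), chr6:27805658-27805683 (minus), chr6:26225819-26225844 (plus) and chr12:14923653-14923678 (minus), in that order.
HIST2H2BE: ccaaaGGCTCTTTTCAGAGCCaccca
HIST1H2BK: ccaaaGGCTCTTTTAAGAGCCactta
HIST1H2AK: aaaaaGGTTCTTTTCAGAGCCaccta
HIST1H3E: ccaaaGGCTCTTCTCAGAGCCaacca
HIST4H4: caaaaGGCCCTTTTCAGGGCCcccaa
HIST2H2BE carried the commonest core. HIST1H2BK carried a core found in 6 genes and HIST4H4 one found in 5. Only A with T and G with C were counted as pairs. By that count HIST1H2AK was among the genes with a mismatch, a T opposite a G, and 39 genes had a perfect stem. Pairing of G with U in the RNA was not counted. A canonical poly(A) signal, AATAAA, lay within 1000 bases after the stop codon in 20 genes. Another annotated gene overlapped 22 of the genes, and the counting is not stated to use strand, so reads of such partners cannot be told apart. HIST1H4C, for example, lies within the annotated span of HIST1H2BC. Coding sequences within a class are also near copies of each other, which leaves the split of reads between them uncertain.

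Promoters of the genes were read from RefSeq (GRCh38.p14), from 250 bases before to 50 bases after the start, for 41 of the 45 genes. On either strand, the CCAAT box (CCAAT) was in 90.2% of them against 34.6% of all 35116 promoters of the same length. The TATA box (TATAAA) was in 60.98% against 11.5%, and the octamer (ATTTGCAT), the site recognised by POU2F1 and POU2F2, was in 46.3% against 1.77%. By class, the octamer was in 10 of 13 H2B and 8 of 11 H2A promoters, in 1 of 8 H3 promoters and in none of the 4 H1 or 5 H4 promoters. The CCAAT box was in every H1, H2A, H2B and H3 promoter and in 1 of 5 H4 promoters. The stretches from 150 bases before the start to 15 after it are shown for 3 genes of the H2A and H2B classes, with these motifs in capitals on either strand, and for HIST4H4, where none of them lies in the stretch. They lie at chr1:149886668-149886832 (minus), chr6:27146844-27147008 (minus), chr6:26124022-26124186 (plus) and chr12:14771117-14771281 (minus) of GRCh38.p14.
HIST2H2BE: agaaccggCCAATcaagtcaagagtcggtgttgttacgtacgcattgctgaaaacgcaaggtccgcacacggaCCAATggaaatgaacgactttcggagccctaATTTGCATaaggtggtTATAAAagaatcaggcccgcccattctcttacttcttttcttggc
HIST1H2BK: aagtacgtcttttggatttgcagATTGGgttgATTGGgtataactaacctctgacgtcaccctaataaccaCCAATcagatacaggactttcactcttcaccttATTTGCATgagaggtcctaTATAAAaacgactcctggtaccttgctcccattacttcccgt
HIST1H2AC: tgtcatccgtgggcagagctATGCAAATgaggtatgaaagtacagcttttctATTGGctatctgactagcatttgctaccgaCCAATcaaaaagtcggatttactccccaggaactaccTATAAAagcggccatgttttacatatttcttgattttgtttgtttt
HIST4H4: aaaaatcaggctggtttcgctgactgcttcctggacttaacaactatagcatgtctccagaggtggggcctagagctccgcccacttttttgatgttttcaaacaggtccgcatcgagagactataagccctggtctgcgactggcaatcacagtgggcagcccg
The octamer stood just upstream of the TATA box in HIST2H2BE and HIST1H2BK, and further upstream on the other strand in HIST1H2AC. A match of letters is a description of these windows, not a bound site.

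**Figure D1:**
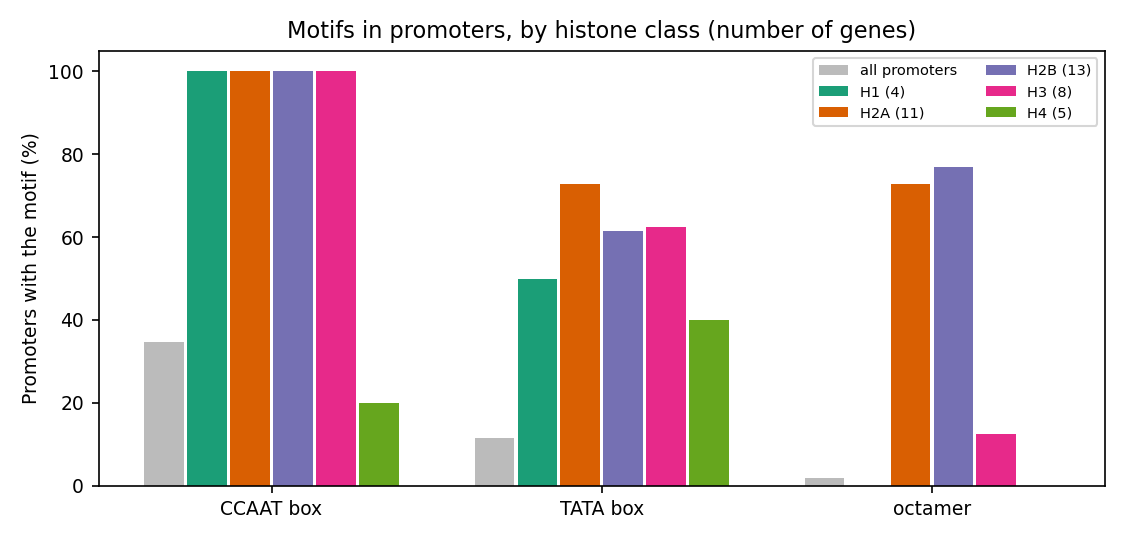
Share of promoters, in percent, that hold each motif on either strand between 250 bases before and 50 bases after the start, for all 35116 promoters (grey) and for the histone genes by class (number of genes in the key). The octamer stood in 76.9% of H2B and 72.7% of H2A promoters, and the CCAAT box in 20% of the H4 promoters.

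Few of the genes were abundant. Mean levels over the 27 libraries ran from 0.0356 to 18.9 CPM with a median of 0.181 CPM, and 6 genes reached a mean of 1 CPM. Over all 27 libraries, HIST1H2BK (H2B) and HIST1H1C (linker histone H1.2) together made up 62.6% of the summed CPM of the 45 genes. Their share differed by line and was smaller in OCI-LY1 cells with shCtr. There the 45 genes summed to a mean of 18.6 CPM, and HIST2H2BE at 5.50 CPM was above both. Per kilobase of annotated exon over all libraries, HIST1H2BK was highest at 38.2 CPM per kb, followed by HIST1H1C at 23.2. HIST1H2BD came next at 4.82, then HIST2H2BE at 2.29 and HIST1H2AC at 1.73. This order pools lines whose levels differ, and in HBL1 cells with shCtr HIST1H1C stood above HIST1H2BK. Levels of 9 genes were at or above 0.1 CPM in every library. The last genes inside the rule were HIST1H2AB and HIST1H2BH (0.115 CPM each in the third highest library) and HIST2H2AB (0.131). Just outside it lay HIST1H3I (0.0939), HIST1H2BM (0.0976) and HIST1H4K (0.0994). Of the 28 symbols outside, 7 were at 0 in all libraries. For 41 of the 45 genes, the place in the set did not depend on any single group. HIST2H2AB and HIST1H2AI entered through HBL1 cells with shSIRT3-1, and HIST3H2A and HIST1H2BH through OCI-LY1 groups, so a difference in those groups is partly given by the rule.

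Summed over the 45 genes, the libraries with shSIRT3-1 held the highest values in HBL1 cells. In HBL1 the sums were 89.1, 69.9 and 35.3 CPM with shCtr, 130.7, 101.6 and 226.4 with shSIRT3-1, and 53.0, 53.2 and 42.3 with shSIRT3-2. The shSIRT3-1 libraries of HBL1 lay above every other HBL1 library. In OCI-LY1 the sums were 18.8, 13.6 and 23.5 CPM with shCtr, 20.98, 103.5 and 24.2 with shSIRT3-1, and 12.97, 23.3 and 13.7 with shSIRT3-2. A single library, replicate 2 of shSIRT3-1, stood above all other OCI-LY1 libraries, whose ranges overlapped. In Karpas422 the sums were 62.0, 64.0 and 46.2 CPM with shCtr, 60.1, 54.7 and 74.2 with shSIRT3-1, and 41.3, 44.7 and 45.2 with shSIRT3-2. All 3 shSIRT3-2 libraries of Karpas422 lay below its shCtr libraries. In these bulk samples, fewer cells in S phase and less histone mRNA per cell cannot be told apart.

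**Figure D2:**
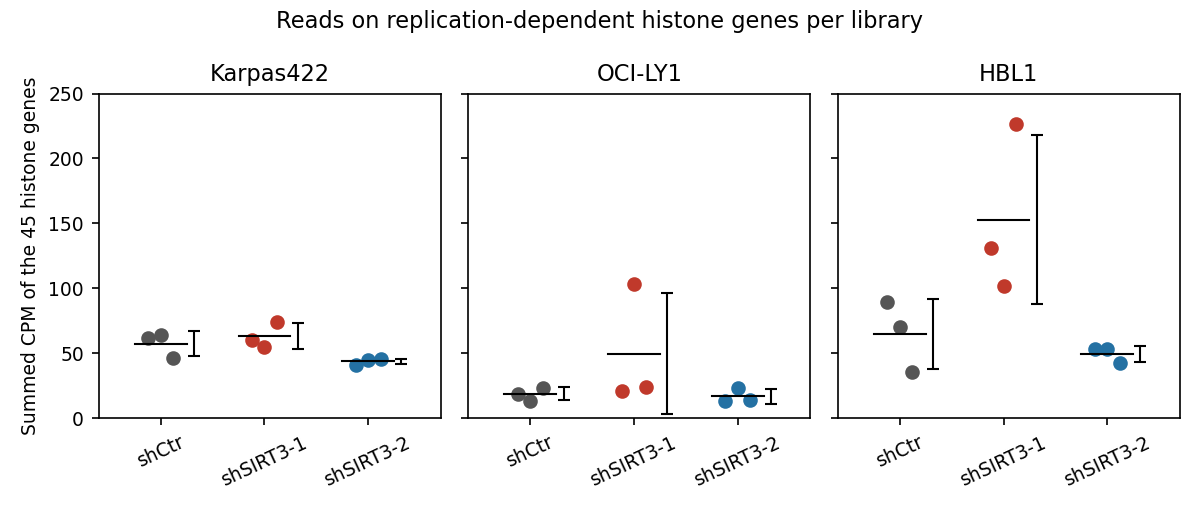
Summed CPM of the 45 histone genes in each of the 27 libraries, by cell line and shRNA. Points are replicates, horizontal lines are means and bars show the SD (n = 3). HBL1 with shSIRT3-1 reached 226.4 CPM, and replicate 2 of shSIRT3-1 in OCI-LY1 reached 103.5 CPM.

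Libraries that stood apart were looked for by the median over the 45 genes of a library's log2 difference from the shCtr mean of its line. This measure is built from the compared genes themselves, so counts without those libraries show only how far a count rests on them. This median was 1.69 in OCI-LY1 shSIRT3-1 replicate 2, where 43 genes were above the shCtr mean. It was 1.75 in HBL1 shSIRT3-1 replicate 3 and 0.81 and 0.62 in the other two libraries of that group. In the remaining 23 libraries it lay between -0.25 and 0.29. The main counts of called genes are also given without OCI-LY1 shSIRT3-1 replicate 2 or HBL1 shSIRT3-1 replicate 3.

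In HBL1 cells, 21 of 45 histone genes were higher with shSIRT3-1 than with shCtr and 0 were lower, with at least 1 call in each class, where 7.95% of all genes were called higher and 16.2% lower. The median log2 fold change was 0.97 over the histone genes and -0.06 over all genes tested. Without the pseudogene HIST2H2BC, which was called (log2 fold change 1.62, adjusted p = 0.021), 20 of 44 were higher. H2B, which lies on the outer face of the nucleosome, had 7 of 14 genes called, and its summed level was 16.6 ± 3.04 CPM with shCtr and 65.7 ± 29.0 with shSIRT3-1 (SD, n = 3 each). HIST2H2BE, which also gives a polyadenylated transcript, measured 3.34, 2.42 and 3.26 CPM with shCtr. It measured 17.9, 12.2 and 33.7 CPM with shSIRT3-1, all above the shCtr libraries (log2 fold change 2.67, SE 0.33, adjusted p = 0.0012). HIST1H2BK was at 10.9, 9.04 and 6.11 CPM with shCtr and at 27.1, 20.9 and 34.5 with shSIRT3-1. Its groups did not overlap either (log2 fold change 1.66, SE 0.24, adjusted p = 0.0021). HIST1H2BG measured 0.386, 0.220 and 0.252 CPM with shCtr and 1.85, 1.12 and 5.59 with shSIRT3-1 (log2 fold change 2.65, SE 0.51, adjusted p = 0.0065). HIST1H2BD measured 1.74, 1.35 and 2.48 CPM with shCtr and 5.25, 3.75 and 13.6 with shSIRT3-1 (log2 fold change 1.78, adjusted p = 0.019). In each of these H2B genes replicate 3 of shSIRT3-1 was the highest library. Without it, 18 of the 45 genes were called higher, where 7.56% of all genes were, and the median was 0.65. The calls by class were then 1 in H1, 5 in H2A, 6 in H2B, 2 in H3 and 4 in H4. Without shCtr replicate 2, 8 were called, and without shCtr replicate 3, 12.

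Genes of the other core histones were called in the same comparison too. H2A, the partner of H2B in the nucleosome, had 5 of 12 genes called. HIST1H2AK was at 0.0914, 0.110 and 0.109 CPM with shCtr and at 0.560, 0.410 and 2.11 with shSIRT3-1, with no overlap (log2 fold change 2.15, SE 0.47, adjusted p = 0.011). HIST1H2AC, the most abundant H2A gene, was at 8.76, 5.58 and 5.23 CPM with shCtr and 9.33, 7.53 and 15.4 with shSIRT3-1, and these overlapped (log2 fold change 0.68, adjusted p = 0.11). H3, whose tail carries many of the known chromatin marks, had 4 of 9 genes called. HIST1H3H measured 0.518, 0.377 and 0.438 CPM with shCtr and 1.49, 1.03 and 4.71 with shSIRT3-1 (log2 fold change 1.92, adjusted p = 0.017). HIST1H3D measured 0.457, 0.283 and 0.306 CPM, then 1.15, 0.793 and 2.51 (log2 fold change 1.69, adjusted p = 0.011). Both H3 genes had every shSIRT3-1 library above every shCtr library. H4, the partner of H3, had 4 of 6 genes called. HIST4H4, the one gene on chromosome 12, was at 0.741, 0.550 and 0.558 CPM with shCtr and 1.90, 1.46 and 4.51 with shSIRT3-1 (log2 fold change 1.77, SE 0.37, adjusted p = 0.0093). HIST1H4H reached 5.30 CPM in shSIRT3-1 replicate 3 but missed the call (log2 fold change 1.99, SE 0.67, adjusted p = 0.053).

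Among the linker histones, 1 of 4 was called in HBL1 cells with shSIRT3-1. HIST1H1D (H1.3) was at 0.416, 0.204 and 0.142 CPM with shCtr and 1.14, 0.593 and 4.07 with shSIRT3-1 (log2 fold change 2.18, SE 0.60, adjusted p = 0.027). HIST1H1C was at 54.9, 43.1 and 12.1 CPM with shCtr and 51.3, 42.5 and 77.6 with shSIRT3-1. Its shCtr values spanned more than its shSIRT3-1 values, and the groups overlapped (log2 fold change 0.85, SE 0.53, adjusted p = 0.25). HIST1H1E (H1.4) measured 0.183, 0.330 and 0.153 CPM, then 0.271, 0.192 and 1.14 (log2 fold change 0.71, adjusted p = 0.31). The calls of HIST2H2BE, HIST1H2BK, HIST1H2BG, HIST1H2AK, HIST1H3D and HIST4H4 held under every alternative tried for them. The call of HIST1H1D was lost with a pseudocount of 1, with no filter, and without shCtr replicate 2, shCtr replicate 3 or shSIRT3-1 replicate 1. HIST1H4E (log2 fold change 1.73, adjusted p = 0.039) and HIST1H3E (0.89, adjusted p = 0.041) were called but lost under 9 and 11 of 17 alternatives.

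**Figure D3:**
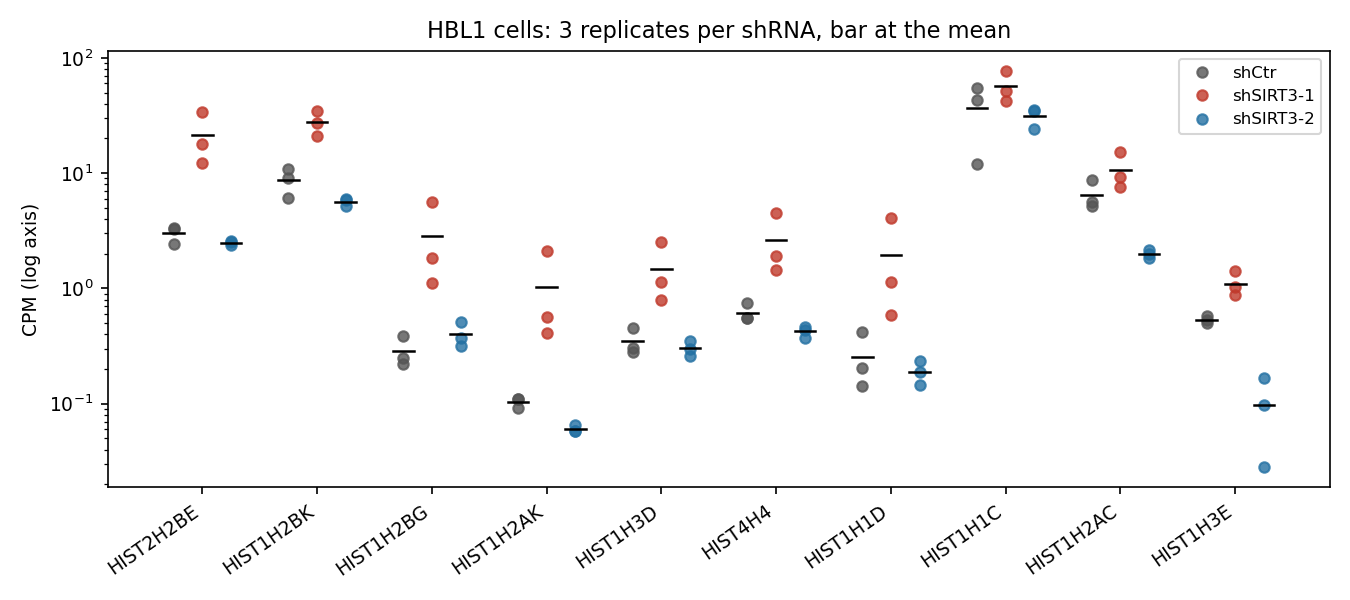
CPM on a log axis of 10 histone genes in HBL1 cells. Points are the 3 replicates with shCtr (grey), shSIRT3-1 (red) and shSIRT3-2 (blue), and bars are means. HIST2H2BE ran from 12.2 to 33.7 CPM with shSIRT3-1, while HIST1H2AC and HIST1H3E were lowest with shSIRT3-2.

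With shSIRT3-2, HBL1 cells had 2 histone genes lower and 1 higher than with shCtr, where 15.2% of all genes were called lower and 5.91% higher. HIST1H2AC fell to 1.83, 2.16 and 1.97 CPM from the shCtr values given above, with no overlap (log2 fold change -1.63, SE 0.29, adjusted p = 0.0052). HIST1H3E was at 0.497, 0.535 and 0.580 CPM with shCtr and 0.0976, 0.166 and 0.0282 with shSIRT3-2 (log2 fold change -1.75, SE 0.28, adjusted p = 0.0033). The shSIRT3-2 values rest on 10, 20 and 3 reads and the shCtr values on 49, 34 and 53 reads. HIST1H2BI, an H2B gene, was called higher on 9, 6 and 14 reads against 2, 2 and 2 with shCtr (log2 fold change 0.59, adjusted p = 0.026). HIST2H2BE measured 2.55, 2.58 and 2.37 CPM with shSIRT3-2 (log2 fold change -0.25, adjusted p = 0.62). HIST1H2BK measured 5.87, 5.94 and 5.22 CPM, below each shCtr library but without a call (log2 fold change -0.57, SE 0.24, adjusted p = 0.12). HIST1H1C measured 34.9, 35.5 and 24.3 CPM (log2 fold change 0.02, SE 0.53, adjusted p = 0.99). With the replicate number as a block, which pairs the HBL1 libraries, 4 genes were lower and 1 higher. Without shCtr replicate 3, 5 were called, all lower, and without shSIRT3-1 replicate 3, 4 were lower and 1 higher. In the latter fit 19.1% of all genes were lower and 7.73% higher. Quantile normalization raised the median log2 fold change of all genes from -0.09 to 0.02 and gave 2 lower and 5 higher.

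The shRNAs were then set against each other within each line. In HBL1, 21 of 45 genes were lower with shSIRT3-2 than with shSIRT3-1 and 1 was higher, where 12.1% of all genes were lower and 11.2% higher. HIST2H2BE differed most (log2 difference -2.92, SE 0.33, adjusted p = 0.0016). HIST1H3E (-2.64), HIST1H4H (-2.63) and HIST1H2AK (-2.49) came next (adjusted p = 0.0013, 0.022 and 0.008). The abundant HIST1H2AC (-2.32) and HIST1H2BK (-2.23) were among the calls too. HIST1H4C, an H4 gene, was the one that was higher with shSIRT3-2 (log2 difference 0.80, adjusted p = 0.041). Without shSIRT3-1 replicate 3, 21 were lower and 0 higher, where 11% of all genes were lower and 9.73% higher. The median log2 difference of the 45 genes was then -0.73, against -1.01 with all libraries. Without shSIRT3-2 replicate 1 the calls numbered 12, and without its replicate 2 they numbered 13. In Karpas422, HIST1H1C was called lower with shSIRT3-2 (1.99, 2.37 and 2.85 CPM) than with shSIRT3-1 (5.28, 4.81 and 7.15 CPM). This was 1 of 45 genes (log2 difference -1.22, SE 0.30, adjusted p = 0.035), where 4.37% of all genes were lower and 4.24% higher. That call was lost without shSIRT3-1 replicate 3 or without any shSIRT3-2 replicate, and under the replicate block. In OCI-LY1 limma called 0 of 45 genes, with 4 at an unadjusted p under 0.05, where 1.79% of all genes were lower and 1.16% higher. The median difference there was -0.61, and without shSIRT3-1 replicate 2 it was -0.27 with 0 genes called by limma. These contrasts share their libraries with those against shCtr.

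Karpas422 cells showed few differences in either direction. With shSIRT3-1, 1 of 45 genes was lower and 0 higher, where 8.58% of all genes were lower and 4.08% higher. With shSIRT3-2, 2 were lower and 0 higher, where 8.00% of all genes were lower and 3.88% higher. HIST1H2AK was called with both shRNAs, which share the shCtr libraries. It measured 0.797, 0.688 and 0.696 CPM with shCtr, 0.386, 0.367 and 0.467 with shSIRT3-1 and 0.316, 0.223 and 0.432 with shSIRT3-2. Both knockdown groups lay below shCtr, with log2 fold changes of -0.71 (SE 0.19, adjusted p = 0.033) and -0.99 (SE 0.19, adjusted p = 0.011). The first of these calls was kept under 5 of 17 alternatives and lost when any shCtr or shSIRT3-1 library was left out. HIST1H2BN, which starts 170 bases from HIST1H2AK on the opposite strand, measured 0.647, 0.850 and 0.362 CPM with shCtr and 0.181, 0.213 and 0.0593 with shSIRT3-2 (log2 fold change -1.52, SE 0.33, adjusted p = 0.017). With shSIRT3-1 it measured 0.289, 0.385 and 0.339 CPM, which overlapped shCtr (log2 fold change -0.66, adjusted p = 0.19). The most abundant gene, HIST1H2BK, was at 41.1, 38.6 and 31.2 CPM with shCtr, 42.9, 37.5 and 46.6 with shSIRT3-1 and 30.1, 32.004 and 28.3 with shSIRT3-2. Neither difference passed the test (log2 fold changes 0.20 and -0.29, adjusted p = 0.28 and 0.13). Leaving out shCtr replicate 3 gave 7 genes lower with shSIRT3-2, leaving out shCtr replicate 1 or 2 gave 1, and edgeR gave 5.

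In OCI-LY1 cells no histone gene was called with either shRNA. With shSIRT3-1, limma called 0 of 45 genes, 10 were at an unadjusted p under 0.05, and edgeR called 0. Of all genes, 1.05% were called lower and 1.47% higher. The share of all genes at the unadjusted p is not given here, so the 10 cannot be set against these shares of calls. With shSIRT3-2, limma called 0, 1 gene was at an unadjusted p under 0.05, and edgeR called 0, where 1.38% of all genes were lower and 0.904% higher. The median log2 fold change with shSIRT3-1 was 0.73 over the histone genes, and 0.29 without replicate 2. HIST1H2BK was at 2.84, 2.25 and 3.98 CPM with shCtr and at 4.52, 26.5 and 4.90 with shSIRT3-1. All 3 shSIRT3-1 libraries were above shCtr, but replicate 2 was far above the others (log2 fold change 1.48, SE 0.72, adjusted p = 0.25). HIST1H1C measured 2.65, 1.84 and 3.16 CPM, then 3.57, 21.3 and 5.02 (log2 fold change 1.51, SE 0.62, adjusted p = 0.19). HIST2H2BE, which differed most in HBL1, measured 3.24, 4.08 and 9.18 CPM, then 3.06, 19.1 and 4.76 here, with overlap (log2 fold change 0.40, adjusted p = 0.76). Without shCtr replicate 1, 6 genes were called higher with shSIRT3-1 and 4 with shSIRT3-2.

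Over the 3 lines together, with the line as an additive term, 18 of 45 genes were higher with shSIRT3-1 and 0 lower, where 4.22% of all genes were higher and 8.00% lower. The median log2 fold change was 0.53, against -0.03 over all genes. HIST1H2BG (log2 fold change 1.17, SE 0.33, adjusted p = 0.0083), HIST1H2BK (1.11, SE 0.29, adjusted p = 0.0043) and HIST1H2BD (1.05, SE 0.33, adjusted p = 0.015) had the largest changes, and all are H2B genes. Calls by class were 2 of 4 in H1, 2 of 12 in H2A, 6 of 14 in H2B, 3 of 9 in H3 and 5 of 6 in H4. Of the 6 genes listed as also giving polyadenylated transcripts, 4 were called, with a median of 0.95. Of the other 39 genes, 14 were called, with a median of 0.51. A split by level gave 9 of 16 genes called at a mean of at least 0.3 CPM (median 0.88). Below that level, 9 of 29 were called (median 0.40). Without both libraries that stood apart, 1 of the 6 (median 0.56) and 1 of the 39 (median 0.24) were called, and by class both calls lay in H2B. Without OCI-LY1 shSIRT3-1 replicate 2 or HBL1 shSIRT3-1 replicate 3 alone, 4 of the 6 were called in each fit, with medians of 0.78 and 0.75, and 2 of 6 in H4. Leaving out 1 library gave 13 to 23 calls, the most without Karpas422 shSIRT3-1 replicate 2. Without OCI-LY1 shSIRT3-1 replicate 2 it was 13, without HBL1 shSIRT3-1 replicate 3 it was 14, and without both it was 2. All were higher, where 4.05%, 3.75% and 3.45% of all genes were called higher in that order. The last count was near the share of all genes. The median log2 fold change was 0.38, 0.41 and 0.30 in these 3 fits, against -0.03, -0.03 and -0.04 over all genes. Without both, 43 of the 45 genes were above 0 and 9 had an adjusted p under 0.05 in limma, of which 7 missed only the fold change of 1.5 (log2 fold changes 0.46 to 0.53). The shares of all genes above 0 or under this adjusted p are not given here for that fit. The calls left were HIST1H2BK (log2 fold change 0.73, adjusted p = 0.016) and HIST1H2BG (0.68, adjusted p = 0.030). Leaving out the line OCI-LY1 gave 7, leaving out HBL1 gave 3 and leaving out Karpas422 gave 25. With shSIRT3-2, limma called 0 of 45 genes, 3 were at an unadjusted p under 0.05 and edgeR called 1, where 9.84% of all genes were lower and 3.03% higher. The median was -0.08 with shSIRT3-2 as deposited and 0.04 after quantile normalization.

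**Figure D4:**
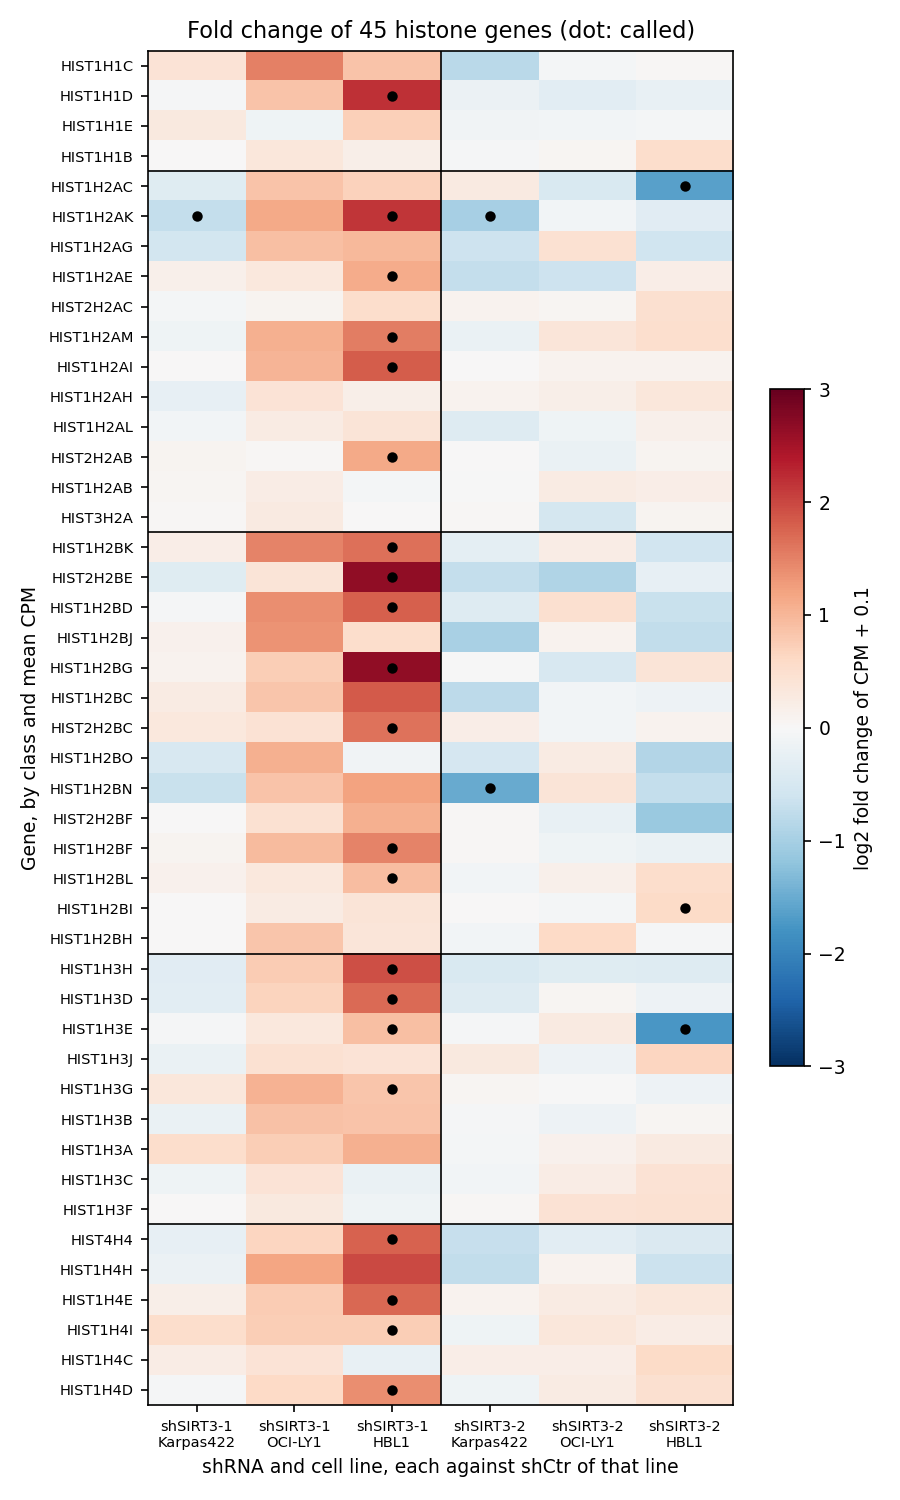
Log2 fold change of CPM + 0.1 for the 45 histone genes (rows, by class and mean CPM) with each shRNA against shCtr in each line (columns). Dots mark calls in limma: 21 higher with shSIRT3-1 in HBL1, and at most 3 in any other column.

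Whether the response differed between lines was tested with the interaction of line and shRNA. It passed at an adjusted p under 0.05 in 13 of 45 genes, where 38.6% of all genes passed. Among them was HIST2H2AB, whose place in the set came through HBL1 cells with shSIRT3-1. For shSIRT3-1 alone the test passed in 12 genes, where 23.1% of all genes passed, and for shSIRT3-2 alone in 2, where 20.7% passed. The share of histone genes was thus not above that of all genes for both shRNAs together. HIST1H3E had the smallest adjusted p (6.2e-05), with log2 fold changes with shSIRT3-2 of -1.75 in HBL1, 0.28 in OCI-LY1 and -0.04 in Karpas422 cells. In Karpas422 it was at 0 in all but 1 library, so a fall could not have been seen there. HIST2H2BE (adjusted p = 0.012) had log2 fold changes with shSIRT3-1 of 2.67, 0.40 and -0.37 in the same order. HIST1H2AK (adjusted p = 0.019) had 2.15, 1.13 and -0.71. Without both libraries that stood apart the test passed in 17 genes. Without the libraries of replicate 1 the test passed in 1 gene, and without those of replicate 3 in 5. The shares of all genes that passed in these refits are not given here.

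The lines also differed in shCtr cells. The levels that chose the genes are the ones compared here. Karpas422 against OCI-LY1 had 13 genes lower and 6 higher, where 21.9% of all genes were lower and 27.8% higher. HBL1 against Karpas422 had 5 lower and 15 higher, where 27.3% of all genes were lower and 27.1% higher. HBL1 against OCI-LY1 had 3 lower and 9 higher, where 23.7% of all genes were lower and 30.7% higher. HIST1H2BK stood at 36.98 ± 5.17 CPM in Karpas422, 8.68 ± 2.41 in HBL1 and 3.02 ± 0.88 in OCI-LY1 (SD, n = 3 each), and each step of this order was called. HIST1H1C stood at 36.7 ± 22.1 CPM in HBL1, 4.43 ± 1.55 in Karpas422 and 2.55 ± 0.66 in OCI-LY1, and the last step was not called. HIST2H2BE stood at 5.50 ± 3.21 CPM in OCI-LY1, 3.01 ± 0.51 in HBL1 and 0.793 ± 0.083 in Karpas422, with no call between the first pair. HIST1H3E stood at 0.537 ± 0.041 CPM in HBL1 and was near 0 in Karpas422. Quantile normalization changed HBL1 against Karpas422 to 6 lower and 7 higher, and leaving out OCI-LY1 shCtr replicate 1 reduced the calls of Karpas422 against OCI-LY1 from 19 to 12.

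Many H2A and H2B genes sit head to head and share the DNA between their starts. Among the genes placed on hg19 there were 8 head-to-head pairs with at most 500 bases between starts, and examples of them follow. They include HIST1H3J, an H3 gene, with HIST1H2BO, which also pairs with HIST1H2AM. HIST1H2BF and HIST1H2BG were not placed, so pairs that hold them could not be counted. HIST2H2BE and HIST2H2AC lie 236 bases apart, and with shSIRT3-1 in HBL1 their log2 fold changes were 2.67 and 0.52 (adjusted p = 0.0012 and 0.16). HIST2H2AC itself measured 0.203, 0.142 and 0.0766 CPM with shCtr and 0.187, 0.261 and 0.270 with shSIRT3-1, which overlapped. HIST1H2BK and HIST1H2AH, 251 bases apart, had 1.66 and 0.18 (adjusted p = 0.0021 and 0.50). HIST1H2BL and HIST1H2AI, 244 bases apart, were both called, at 0.94 and 1.82 (adjusted p = 0.039 and 0.041). HIST1H2AI entered the set through this very group, so its call is partly given by the rule. With shSIRT3-2 in HBL1, HIST1H2AC was at -1.63 while HIST1H2BC, 219 bases away, was at -0.15 (adjusted p = 0.0052 and 0.89). The differences within pairs were not tested.

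Genes of the histone pathway were taken from lists. Over the 3 lines, 8.00% of all genes were lower and 4.22% higher with shSIRT3-1, and 9.84% and 3.03% with shSIRT3-2. In the fit over 3 lines, limma called 1 of 12 replication-independent histone variants lower with shSIRT3-1: H1FX, a linker histone variant (log2 fold change -0.65, adjusted p = 0.0085). Of 18 genes for histone transcription and 3′ processing, 1 was lower and 1 higher. These were POU2F1, the octamer-binding factor (-0.69, adjusted p = 0.0011), and SRRT, a partner of the cap-binding complex (0.61, adjusted p = 3.5e-05). With shSIRT3-2, SLBP (0.59, adjusted p = 6.1e-05) and SRRT (0.74, adjusted p = 4.5e-06) were higher and no gene of that list was lower. CHAF1B, a subunit of the chromatin assembly factor, was the 1 of 18 chaperone and import genes called with shSIRT3-1 (-0.65, adjusted p = 0.013), and without HBL1 shSIRT3-1 replicate 3 that list had 0 calls. In limma, 0 of 8 decay genes were called with either shRNA, with 4 and 3 at an unadjusted p under 0.05. In HBL1 alone, 4 of the 18 transcription and processing genes were lower and 0 higher with shSIRT3-1, where 16.2% of all genes were lower and 7.95% higher. Without shSIRT3-1 replicate 3, 4 were lower and 1 higher. With shSIRT3-2, 3 were lower and 2 higher, where 15.2% and 5.91% of all genes were. POU2F1 was lower with both shRNAs (-1.39 with shSIRT3-1 and -1.12 with shSIRT3-2, adjusted p = 0.00052 and 0.0013), and SLBP was higher with shSIRT3-2 (1.00, adjusted p = 0.0017). The others were LSM11 (-0.66), ZNF473 (-0.93) and CPSF2 (-0.92) with shSIRT3-1, all of the 3′ processing machinery. With shSIRT3-2 they were HINFP (-0.70), a factor of H4 gene transcription, YY1 (-0.66) and SRRT (0.78). In Karpas422 limma called SRRT alone, higher with both shRNAs (0.72 and 0.88), and in OCI-LY1 it called 0 of 18, with 6 at an unadjusted p under 0.05 for each shRNA. The part of these genes in the histone levels was not tested.

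Genes of S phase and DNA replication, most of which are polyadenylated, were counted in the same way. Of 38 such genes in HBL1, 7 were lower and 0 higher with shSIRT3-1 (median log2 fold change -0.85), where 16.2% of all genes were lower and 7.95% higher. Without shSIRT3-1 replicate 3, 8 were lower, where 16.6% of all genes were lower, and the median was -0.35. With shSIRT3-2, 0 were lower and 5 higher (median 0.47), where 15.2% of all genes were lower and 5.91% higher. Without shSIRT3-1 replicate 3, which enters that fit through its estimate of the spread, 10 were higher, where 7.73% of all genes were higher. Set directly against shSIRT3-1 in HBL1, shSIRT3-2 had 24 of the 38 higher and 0 lower (median log2 difference 1.27). In that contrast 11.2% of all genes were higher and 12.1% lower. It includes shSIRT3-1 replicate 3, the library with the lowest S phase median. In Karpas422, 7 were lower and 0 higher with shSIRT3-1 (median -0.22), where 8.58% of all genes were lower. With shSIRT3-2, 4 were lower there and 1 was higher (median -0.03), where 8.00% of all genes were lower and 3.88% higher, and PRIM1, CDT1 and TK1 were lower with both shRNAs. FEN1 was the one that was higher. In OCI-LY1 limma called 0 of 38 with either shRNA, with 7 and 4 at an unadjusted p under 0.05. Over the 3 lines, 6 were lower with shSIRT3-1 (median -0.29), where 8.00% of all genes were lower. The count was 4 without HBL1 shSIRT3-1 replicate 3 (median -0.12) and 8 without OCI-LY1 shSIRT3-1 replicate 2. The 6 were led by PRIM1, the primase subunit (-1.22, adjusted p = 5.8e-06), CDT1, a replication licensing factor (-1.16, adjusted p = 0.0011), and TK1, thymidine kinase (-1.13, adjusted p = 0.0015). With shSIRT3-2, 4 were higher, where 3.03% of all genes were higher, and 5 without either library. They were led by CCNE2, cyclin E2 (1.05, adjusted p = 0.00029), FEN1, the flap endonuclease (0.84, adjusted p = 0.00078), and MCM4, a helicase subunit (0.63, adjusted p = 0.031). By library, the median difference of the S phase genes from the shCtr mean was -0.46, -0.28 and -1.85 in the shSIRT3-1 libraries of HBL1, in which the histone genes were at 0.81, 0.62 and 1.75. In OCI-LY1 shSIRT3-1 replicate 2 the S phase genes were at 0.02 and the histone genes at 1.69. The share of cells in S phase was not measured here.

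**Figure D5:**
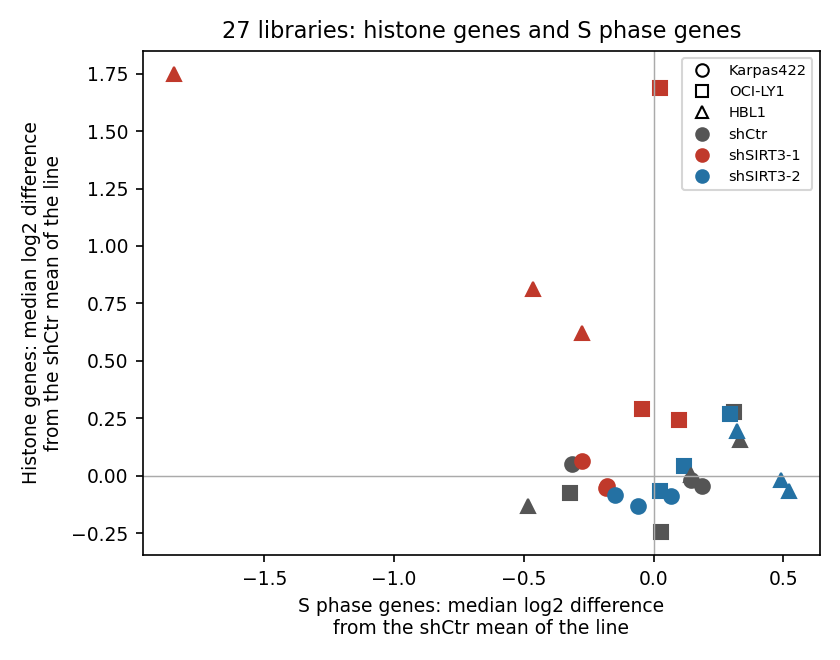
Each point is 1 of the 27 libraries. The horizontal axis is the median log2 difference of 38 S phase genes from the shCtr mean of the line, and the vertical axis is the same for the 45 histone genes. HBL1 shSIRT3-1 replicate 3 lies at -1.85 and 1.75, and OCI-LY1 shSIRT3-1 replicate 2 at 0.02 and 1.69.

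Other RNAs without a poly(A) tail were listed as a measure of how far such RNA was captured. Of 9 tested, SCARNA2, a small Cajal body RNA, was called higher with shSIRT3-1 over the 3 lines (log2 fold change 1.29, adjusted p = 2.6e-06) and with shSIRT3-2 (0.90, adjusted p = 0.00019). Of all genes, 4.22% were called higher with shSIRT3-1 in that fit and 3.03% with shSIRT3-2. The list's median difference from the shCtr mean was 0.23 in OCI-LY1 shSIRT3-1 replicate 2 and 0.09 in HBL1 shSIRT3-1 replicate 3. Its part in the histone levels was not tested. Markers of B cells (6 genes) summed to between 945 and 2494 CPM per library. The 5 T cell markers summed to at most 43.5 CPM in Karpas422, 2.82 in HBL1 and 0.143 in OCI-LY1, and the 5 myeloid markers to at most 1.24 CPM, with 1 of them at 0 in every library. In HBL1 the T cell sum ran from 1.90 to 2.34 CPM with shCtr, from 0.396 to 0.728 with shSIRT3-1 and from 1.33 to 2.82 with shSIRT3-2. The myeloid sum there ran from 0.722 to 1.24 CPM with shCtr and from 0.243 to 0.610 with shSIRT3-1. With shSIRT3-2 it ran from 0.263 to 0.399 CPM. The markers of germinal center B-cell like DLBCL summed to 481 to 534 CPM in OCI-LY1 shCtr cells and to 155 to 182 in HBL1. Those of activated B-cell like DLBCL summed to 137 to 172 CPM in OCI-LY1 and to 1511 to 1649 in HBL1 shCtr cells, to 523 to 1315 in HBL1 with shSIRT3-1 and to 833 to 987 with shSIRT3-2. The germinal center markers in HBL1 summed to 119 to 137 CPM with shSIRT3-1 and to 63.9 to 74.1 with shSIRT3-2. The B cell markers there summed to 1779 to 2194 CPM with shCtr, 1832 to 2190 with shSIRT3-1 and 1495 to 1572 with shSIRT3-2. These sums follow the most abundant markers, and single genes moved both ways in HBL1. There, 16.2% of all genes were called lower and 7.95% higher with shSIRT3-1, and 15.2% and 5.91% with shSIRT3-2. Of the 5 germinal center markers, 0 were lower and 2 higher with shSIRT3-1 (median log2 fold change 0.55), SERPINA9 (3.15) and LMO2 (1.16), while BCL6, which makes up most of the sum, was at -0.48 and missed the fold change of 1.5. With shSIRT3-2, 1 was lower, BCL6 (-1.32), and 0 higher (median -0.36). Of the 6 activated B-cell markers, 1 was lower with shSIRT3-1 and 2 with shSIRT3-2, and of the 6 B cell markers 1 was lower and 2 higher with shSIRT3-1, and 3 lower and 1 higher with shSIRT3-2. In Karpas422 the B cell markers summed to 1633 to 2363 CPM with shCtr and 945 to 1484 with shSIRT3-2. The germinal center markers there summed to 1017 to 1343 CPM with shCtr and 624 to 822 with shSIRT3-2. In each of these 2 lists, 2 genes were lower and 0 higher with shSIRT3-2 in Karpas422, where 8.00% of all genes were lower. The part of these markers in the histone levels was not tested.

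Across the 27 libraries the histone genes tended to vary together. Pearson's r between pairs had a median of 0.50 over 990 pairs, and 871 pairs were above 0. Among the 16 genes with a mean of at least 0.3 CPM the median was 0.63, and 115 of 120 pairs were above 0. HIST1H1D followed the mean of the 45 genes most closely (r = 0.96). The genes outside the set with the most similar pattern over the 27 libraries were LOC101929748 (r = 0.91), G6PC (0.88), OR2B6 (0.87), HPS4 (0.86) and LOC101929294 (0.86). The libraries share lines and depth, and these values are descriptions.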

How the data were processed

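RNA was measured in 27 libraries (3 lines, 3 shRNAs, 3 replicates). The authors extracted total RNA, prepared TruSeq libraries with random-primed first strands, sequenced paired ends on a HiSeq2000, aligned to hg19 with STAR and counted RefSeq genes with Rsubread (versions not given in the sources used here). The files deposited by the authors are named for FPKM, but each value was a whole multiple of 1 read's worth for every gene, so they hold CPM. Over the genes listed they summed to 40.3% to 45.6% of the total that CPM scales to, and what else the authors' denominator held is not stated. The 45 genes and all lists were chosen with earlier results of these data known.

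Values were taken as log2(CPM + 0.1), which understates changes of low genes, and genes at 0.1 CPM in at least 3 of 27 libraries were fitted with limma 3.58.1 (trend) in R 4.3.3. Lines were fitted alone (9 libraries), together with line as an additive term, or with 9 group means for shCtr between lines and for the interaction F test. Calls needed a fold change over 1.5 and a Benjamini-Hochberg adjusted p under 0.05. Shares of all genes are shares of such calls or, for the interaction, of genes under that adjusted p. Counts at an unadjusted p have no share of all genes beside them and cannot be read against the shares of calls. Over several lines the model follows the study's additive design, with limma on the deposited CPM in place of edgeR, which was run as an alternative on the reads recovered from them (26 of 45 genes called with shSIRT3-1 over 3 lines, against 18 in limma). Genes named were SIRT3, the 3 most abundant histone genes of each class, up to 3 called with the largest change in each comparison with shCtr, those called alike with both shRNAs, and up to 3 called per list. Other genes are named for the rule's edge, for head-to-head pairs, for contrasts between shRNAs and for near misses, after their values were seen. Alternatives were pseudocounts of 1 and 0.01, a level of 1 CPM or no filter, quantile and median-ratio scaling, a replicate block, 9 group means, edgeR 4.0.16 on recovered reads, and leaving out each library or line. Leaving out both libraries that stood apart, and either or both for the lists and the contrast between shRNAs, was added after seeing the data, as was leaving out the pseudogene.

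In HBL1 all 9 pairs of libraries with the same number deviated together (r from 0.16 to 0.46). The numbers were therefore taken to pair its libraries, though the labels do not say so. There 6 of 9 libraries correlated best with their own number. The main HBL1 fits did not use this pairing, which entered only through the replicate block as an alternative. Steps were tested on simulated data: of 198 genes changed 2-fold, limma recovered 83.8% over 3 lines, and 18.2% in HBL1, 10.6% in OCI-LY1 and 8.59% in Karpas422 when fitted alone, and called 0 of 16195 unchanged genes in each of these fits. The interaction test recovered 37.8% of 196 changed genes and called 5 of 16189 unchanged genes. Every simulated gene had a dispersion of 0.03, with no libraries that stood apart and no shared replicate effects. These rates therefore need not hold for the histone genes. Sequences were read with Python 3.11.15 from hg19 with GENCODE genes and from RefSeq tables.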

Additional observations from a re-analysis of the deposited data

Results flagged for a closer look

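For 13 of 45 histone genes, where 38.6% of all genes passed the same test, the change with the shRNAs was not the same in the 3 lines, by limma's F test of the interaction adjusted over all genes. The adjusted p was 6.2e-05 for HIST1H3E, 0.008 for HIST1H2AG, 0.012 for HIST1H2BN and HIST2H2BE, 0.017 for HIST1H2BG, 0.019 for HIST2H2BF and HIST1H2AK, and 0.02 for HIST1H3D. It was 0.027 for HIST1H3H, 0.033 for HIST4H4, 0.036 for HIST1H2AC, 0.046 for HIST2H2AB and 0.047 for HIST1H1D. HIST2H2AB entered the set through HBL1 cells with shSIRT3-1, so its difference between lines is partly given by the rule. HIST2H2BF, where the search found no stem-loop after the stop codon used, had log2 fold changes in HBL1 of 1.07 with shSIRT3-1 and -1.10 with shSIRT3-2. It overlaps FCGR1A in the annotation. HIST1H2AG had log2 fold changes with shSIRT3-1 of 0.97 in HBL1, 0.90 in OCI-LY1 and -0.55 in Karpas422 cells. Groups of 3 were not tested for single outlying samples.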

How the results depend on the processing

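No gene changed direction under any alternative while called. Counts that moved by over 1.5 times were as follows. With shSIRT3-1 over 3 lines (18 called), a pseudocount of 1 gave 5, a level of 1 CPM gave 7 of 10 genes, no OCI-LY1 line gave 7, no HBL1 line gave 3, and leaving out both libraries that stood apart gave 2. With shSIRT3-2 over 3 lines (0), edgeR gave 1 and leaving out OCI-LY1 gave 3. In Karpas422, shSIRT3-1 (1) gave 0 with a pseudocount of 1, a level of 1 CPM, no filter, edgeR or 9 group means. Leaving out 1 library gave 0 to 1 there (1 without shCtr replicate 3, and 1 gene higher, not lower, without shSIRT3-1 replicate 1 or 2). There shSIRT3-2 (2) gave 0 with a pseudocount of 1 or a level of 1 CPM, 5 with edgeR, 1 with 9 group means, and 1 to 7 leaving out 1 library. In OCI-LY1, shSIRT3-1 (0) gave 4 with 9 group means and 0 to 6 leaving out 1 library, and shSIRT3-2 (0) gave 0 to 4. In HBL1, shSIRT3-1 (21) gave 8 with a pseudocount of 1, 7 with a level of 1 CPM, 13 with no filter, and 8 to 26 leaving out 1 library. There shSIRT3-2 (3) gave 1 with a pseudocount of 1 or a level of 1 CPM, 7 with quantile scaling, 5 with edgeR, 5 with the replicate block, and 2 to 5 leaving out 1 library. Between shRNAs, Karpas422 (1) gave 2 with quantile scaling, 0 with the replicate block and 0 to 1 leaving out 1 library, OCI-LY1 (0) gave 1 with the block, and HBL1 (22) gave 12 with a pseudocount of 1 and 12 to 28 leaving out 1 library. In shCtr, Karpas422 against OCI-LY1 (19) gave 6 with a pseudocount of 1 and 12 to 18 leaving out 1 library, HBL1 against Karpas422 (20) gave 7 with a pseudocount of 1 and 13 with quantile scaling, and HBL1 against OCI-LY1 (12) gave 4 with a pseudocount of 1. The interaction (13) gave 6 with a level of 1 CPM and 1 to 13 leaving out a replicate number. The level of 1 CPM leaves fewer genes to test. Causes of the other moves were not tested. In Karpas422 and OCI-LY1, same-numbered libraries correlated above 0.1 in 7 of 9 pairs in each line (lowest r 0.0244 and 0.0856). Since not every pair did and the labels name no shared batch, they were not treated as paired. There the libraries correlated best with their own number in 6 of 9 and 9 of 9 cases, a hint from the data and not from the design. Most of the 45 genes lie under 1 CPM, where few reads limit what can be seen.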
